A study of Mus musculus with 2 samples.

Results

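The regions described here are 922 ALKBH5 peaks that lay far from protein-coding genes and overlapped no IgG peak. They are 7.48% of the 12333 peaks listed for the ALKBH5 library (95% exact interval 7.02 to 7.95). The members were chosen by the deposited peak calls of both libraries: a peak was taken when it was on chromosomes 1 to 19, X or Y, had no base in common with any IgG peak, had its summit inside no annotated gene of any type, and had that summit 30 kb or more from the nearest end of a protein-coding gene. The peaks came from CUT&Tag on Hepa1-6 cells, an established mouse hepatoma line. Before the assay the cells had been infected overnight with ad-FLAG-ALKBH5, an adenovirus that makes FLAG-tagged ALKBH5, so the tagged enzyme was added to whatever the cells make themselves. The study made 1 library with ALKBH5-FLAG as the target and 1 with IgG, whose list held 3378 peaks, and both cultures received the virus per the labels' protocols. The labels are not uniform: the IgG sample carries ALKBH6-FLAG in its treatment field, and the series description speaks of primary hepatocytes, not of Hepa1-6. Peaks carry no expression levels, so the cell type was not checked against its marker genes.

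ALKBH5 is known as a nuclear enzyme that takes the methyl group off N6-methyladenosine in RNA. CUT&Tag tethers the Tn5 transposase to an antibody on chromatin and sequences the DNA that Tn5 cuts nearby, and a non-specific IgG antibody shows where DNA is cut without a target. The long stretches between genes, the longest of which are called gene deserts, are known to hold enhancers that act on distant promoters, the starts of long non-coding RNAs (lncRNAs) and of some microRNA precursors, and arrays of repeated genes.

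The sequences shown are those of microRNAs and lncRNA starts near members, the 2 kinds of non-coding gene for which sequence was at hand. The member with the highest pileup outside the stretches of high coverage described further on lay 8.32 kb upstream of the let-7 cluster on chromosome 13 (chr13:48545728-48546746, GRCm38), and the widest member among the 10 of highest fold lay 15.6 kb upstream of Mir30a on chromosome 1 (chr1:23255967-23257042). A pair of weaker members lay upstream of Mir29b-1 on chromosome 6. The mature sequences, from RefSeq on GRCm38.p6, run 5′ to 3′ with the seed (bases 2 to 8, which pair with target messages) in capitals. The 3 let-7 sequences share the seed GAGGUAG and the miR-29 sequences share AGCACCA.
mmu-let-7a-5p: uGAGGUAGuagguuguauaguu
mmu-let-7f-5p: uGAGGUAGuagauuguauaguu
mmu-let-7d-5p: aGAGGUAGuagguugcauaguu
mmu-miR-30a-5p: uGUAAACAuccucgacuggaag
mmu-miR-29a-3p: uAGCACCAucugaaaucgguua
mmu-miR-29b-3p: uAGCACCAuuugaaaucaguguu

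Members also reached into the start regions of 23 annotated lncRNA genes. The following 4 windows, from 250 bases before to 50 bases after the annotated start (RefSeq, GRCm38.p6, on the gene's strand, 5′ to 3′), are those with the most to show: Gm34507 (chr17:4908072-4908371, plus strand) had the highest CpG count, Gm31342 (chr15:67039343-67039642, plus) and D630024D03Rik (chr11:31824498-31824797, minus) were among the strongest, and 4930471E19Rik (chr10:120636058-120636357, minus) held matches to 3 motifs. Capitals mark the bases inside the ALKBH5 peak, and motif matches were counted over the whole window.
Gm34507: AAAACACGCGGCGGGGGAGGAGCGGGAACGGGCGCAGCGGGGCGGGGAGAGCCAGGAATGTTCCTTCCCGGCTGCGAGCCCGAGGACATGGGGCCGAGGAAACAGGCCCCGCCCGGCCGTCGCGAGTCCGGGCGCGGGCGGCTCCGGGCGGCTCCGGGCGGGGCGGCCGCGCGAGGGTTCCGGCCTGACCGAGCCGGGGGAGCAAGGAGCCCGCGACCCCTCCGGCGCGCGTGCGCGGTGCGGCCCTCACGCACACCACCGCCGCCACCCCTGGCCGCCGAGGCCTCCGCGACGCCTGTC
Gm31342: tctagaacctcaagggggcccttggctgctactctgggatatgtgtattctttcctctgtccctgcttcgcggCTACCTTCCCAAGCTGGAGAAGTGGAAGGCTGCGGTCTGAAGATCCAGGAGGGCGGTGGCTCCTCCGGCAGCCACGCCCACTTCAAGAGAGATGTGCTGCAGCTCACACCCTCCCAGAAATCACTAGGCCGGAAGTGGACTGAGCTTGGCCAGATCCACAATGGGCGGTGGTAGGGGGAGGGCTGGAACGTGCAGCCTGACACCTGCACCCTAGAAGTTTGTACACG
D630024D03Rik: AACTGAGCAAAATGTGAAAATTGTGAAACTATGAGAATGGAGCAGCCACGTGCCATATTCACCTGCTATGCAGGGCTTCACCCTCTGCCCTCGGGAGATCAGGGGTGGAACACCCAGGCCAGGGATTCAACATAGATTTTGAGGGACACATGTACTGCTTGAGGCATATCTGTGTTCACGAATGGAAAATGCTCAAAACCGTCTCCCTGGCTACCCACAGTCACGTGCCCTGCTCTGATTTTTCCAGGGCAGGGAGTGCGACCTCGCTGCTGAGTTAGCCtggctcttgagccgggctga
4930471E19Rik: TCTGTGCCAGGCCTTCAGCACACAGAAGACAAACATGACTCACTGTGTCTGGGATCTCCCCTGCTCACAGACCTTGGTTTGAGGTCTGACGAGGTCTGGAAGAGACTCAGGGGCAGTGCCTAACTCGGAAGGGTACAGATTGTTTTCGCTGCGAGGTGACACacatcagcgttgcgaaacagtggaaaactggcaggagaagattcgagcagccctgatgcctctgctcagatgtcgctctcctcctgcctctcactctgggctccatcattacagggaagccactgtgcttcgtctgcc

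The members were low and narrow peaks. Pileup, the number of fragments stacked at the summit in the authors' list, had a median of 6 over the members (interquartile range 5 to 8, range 3 to 72). Among the 2783 ALKBH5-only intergenic peaks within 30 kb of a protein-coding gene end, the median pileup was 9 (6 to 12). The fold enrichment, the authors' ratio of pileup to local background with 1 added to each, had a median of 5.08 over the members (4.31 to 5.93) and 5.56 over the peaks within 30 kb (4.84 to 6.57). The background that this fold implies, in fragments, had a median of 0.24 at the members and 0.68 within 30 kb. A median member thus stood on nearly empty surroundings, and a few fragments made its peak. Width was 200 bp, the shortest in the list, for 357 members (38.7%, 35.6 to 42) and for 464 of the peaks within 30 kb (16.7%, 15.3 to 18.1). All members together covered 0.274 Mb. With 1 library a group no difference here has a replicate check, none was tested, and intervals cover counting error only. The number of reads per library was not given in the sources used here.

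A −log10 q of 5 or more, a stricter limit than the 5% at which the list ends, was reached by 268 members (29.1%, 26.2 to 32.1) and by 46.5% of the peaks within 30 kb (44.6 to 48.4), against 42.7% of all ALKBH5-only peaks. A fold of 5 or more was reached by 516 members (56%) and by 69.6% of the peaks within 30 kb, against 66.8% of all ALKBH5-only peaks. The members' share was the lower one under both limits. Among the members, 436 (47.3%) had a pileup of 5 or less, against 18% of the peaks within 30 kb.

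From 30 kb on, members grew sparser with each step away from protein-coding genes. ALKBH5-only intergenic peaks numbered 49.9 per Mb in the first 1 kb beyond a gene end, 2.74 per Mb at 1 to 5 kb and 2.9 per Mb at 5 to 30 kb. Among the members the density was 2.03 per Mb at 30 to 50 kb, 1.45 at 50 to 100 kb, 0.891 at 100 to 200 kb, 0.492 at 200 to 500 kb and 0.35 beyond 500 kb. IgG peaks, those shared with ALKBH5 included, fell over the same bins, with 0.739, 0.657, 0.474, 0.302 and 0.229 per Mb. IgG peaks that shared no base with ALKBH5 had 0.493, 0.465, 0.313, 0.233 and 0.184 per Mb. The exact 95% Poisson intervals of the members and of all IgG peaks were apart in the bins up to 200 to 500 kb. They overlapped beyond 500 kb (0.277 to 0.437 for members, 0.171 to 0.301 for IgG). Members were chosen by their lack of IgG overlap, so these intervals are no test of ALKBH5 against IgG. Over the whole 1017 Mb that lies this far from protein-coding genes, assembly gaps included, there were 0.904 members per Mb (0.846 to 0.964) and 0.44 IgG peaks per Mb. The libraries' depths are not known, so the ratio of these densities has no scale of its own.

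**Figure D1:**
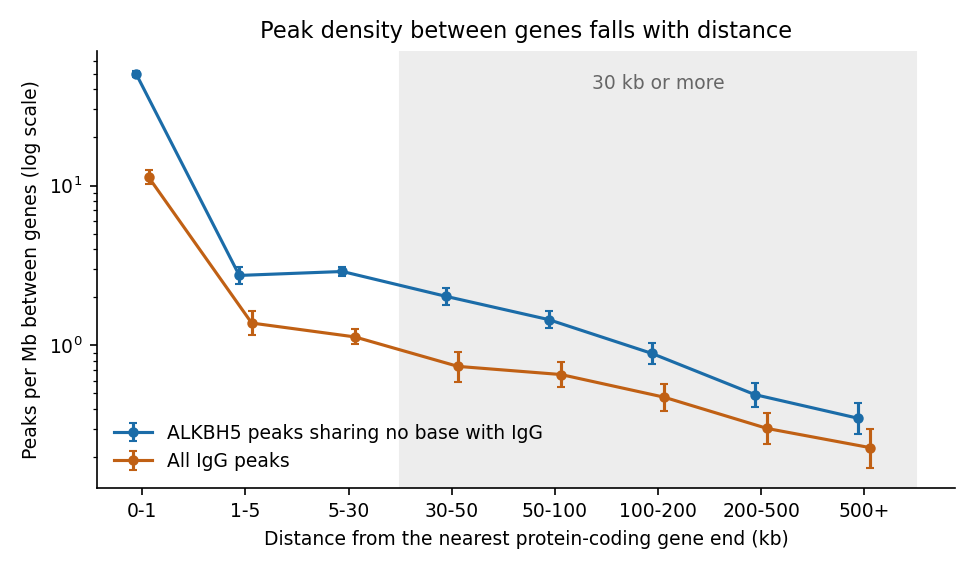
Peaks per Mb of space between genes (log axis) against distance from the nearest protein-coding gene end, for ALKBH5 peaks sharing no base with IgG and for all IgG peaks, with exact 95% Poisson intervals. Both lines drop with distance, from 49.9 and 11.3 per Mb in the first 1 kb to 0.35 and 0.229 per Mb beyond 500 kb, and the grey area marks the distances of the members.

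The median fold enrichment did not follow this fall in number. It was 5.13 at 30 to 50 kb and 5.08 in each of the 4 bins beyond. Other values were lower in the farthest bin than in the nearest. The upper quartile of fold was 6.03 in the nearest and 5.54 in the farthest, the median pileup 6 and 5, and the median width 274 and 200 bp. The share with a −log10 q of 5 or more was 32.8%, 32.4%, 26.6%, 21.9% and 24.4% from the nearest to the farthest bin, with intervals that overlapped (27 to 39 in the nearest, 15.3 to 35.4 in the farthest). The median local background was 0.38 in the nearest bin and 0.18 in the farthest. Of the members, 403 (43.7%) were 100 kb or more from any protein-coding gene end, 78 (8.46%) were 500 kb or more, and 26 were 1000 kb or more.

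The share without IgG overlap was near that of the whole list. Of the 1074 intergenic ALKBH5 peaks beyond 30 kb, 922 (85.8%, 83.6 to 87.9) shared no base with an IgG peak, which is the rule that made them members, and 85.1% of all ALKBH5 peaks did. The members had a median pileup of 6 and the other 152 had one of 14. Beyond 30 kb the share of ALKBH5 peaks that overlapped IgG was 2.88% at a pileup of 3 to 4, 5.08% at 5 to 6, 10.8% at 7 to 9, 27.2% at 10 to 14, 43.5% at 15 to 29 and 70.2% at 30 or more. Within 30 kb it was 4.29%, 3.45%, 8.08%, 15.3%, 37% and 78.4% in the same classes. A tall peak in these lists was thus more often an IgG peak as well, at either distance. IgG peaks placed by the same distance rule numbered 471, with a median pileup of 4 and a median fold of 4.53. The lists did not start from the same floor: the smallest width, pileup and local background were 200 bp, 3 and 0.129 in the ALKBH5 list and 190 bp, 2 and 0.042 in the IgG list, and the part of this in the comparisons of density, pileup and fold with IgG was not tested.

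Most members had no IgG peak within 100 kb of the summit. An IgG peak lay within 1 kb of the summit for 16 members (1.74%), within 10 kb for 45 (4.88%, 3.58 to 6.48), within 100 kb for 254 (27.5%) and within 1000 kb for 773 (83.8%). The same shares were not computed for random positions of the far space. Whether members lay nearer to IgG peaks or farther from them than such positions was thus not tested.

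The member of highest fold was on chromosome 14, 456 kb downstream of Diaph3, which encodes a formin that nucleates actin filaments, and 1662 kb from Pcdh17 on its other side. It had a fold of 12.3 at a pileup of 15, and the nearest IgG peak was 1693 kb away. The second was on chromosome 2 (chr2:148122187-148122657), 75.5 kb upstream of Foxa2, the forkhead transcription factor known for opening chromatin in endoderm and liver. It had a fold of 11.9 at a pileup of 18, with the nearest IgG peak 550 kb away. Their local backgrounds were 0.30 and 0.60 fragments, where the members' upper quartile was 0.48.

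The third, with a fold of 10.9 at a pileup of 13, was on chromosome 17 between Kcnh8, a potassium channel gene 173 kb away, and Efhb at 245 kb. The fourth was the member upstream of Mir30a, with a fold of 10.6 at a pileup of 25 over 1076 bp. It lay between Ppp1r14bl at 154 kb and Ogfrl1 at 110 kb. The fifth, with a fold of 10.1 at a pileup of 19, was 44.6 kb from Vmn2r87, a vomeronasal receptor gene, beyond which no protein-coding gene followed on chromosome 10.

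The other 5 of the top 10 by fold had folds of 9.38 to 9.84. A member 83.4 kb upstream of Rfc3, a subunit of the clamp loader of DNA replication, had a fold of 9.84 at a pileup of 11. A member between Nrip1, a corepressor of nuclear receptors, at 492 kb and Usp25, a deubiquitinase gene, at 148 kb had 9.56 at a pileup of 12. A member 46.7 kb from Zfpm2, a cofactor of GATA factors, and 296 kb from Oxr1 had 9.49 at a pileup of 14. The member upstream of let-7, between Zfp169 at 33.1 kb and Ptpdc1 at 31.3 kb, had 9.42 at a pileup of 28. The last lay between Chd2, a chromatin remodeller gene, at 114 kb and Fam174b at 84.1 kb, and had 9.38 at a pileup of 11. The nearest IgG peak was 52 kb away or more for all 10.

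The tallest members were a different set, and every one of the 10 sat in a stretch of high coverage. Their pileups were 40 to 72 and their folds only 2.3 to 3.44, because the local background was 12.7 to 25.8 fragments where the median member had 0.24. They were 6 members in the 5S ribosomal RNA gene cluster of chromosome 8, 2 beside Rn18s-rs5, a pseudogene of 18S ribosomal RNA on chromosome 17, 1 near the start of chromosome 9 and 1 on chromosome 14 near Gm9637. The member on chromosome 9 had the highest pileup of all, 72, on a background of 25.8, with an IgG peak 0.611 kb away. Reads from repeated copies can be placed at any of them, so the position of such peaks is uncertain.

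In all, 26 members (2.82%) had a local background of 5 or more, a limit chosen after the values were seen. They were 11 between Hrh1 and Atg7 on chromosome 6, 8 in the 5S cluster, 2 beside Rn18s-rs5, 2 beside the small nuclear RNA gene Gm25890 on chromosome 3, 2 at the start of chromosome 9 and 1 on chromosome 14, with folds of 2.3 to 4.57. IgG peaks lay in 5 of these 6 stretches too. At the start of chromosome 9 the ALKBH5 list held 15 peaks with a median pileup of 75, 13 of them shared with IgG, and the IgG list held 15 peaks with a median pileup of 63. By the gene on chromosome 3 the ALKBH5 list held 3 peaks and the IgG list 0. Without the 26, the remaining 896 members had pileups of 3 to 28, a median pileup of 6 and a median fold of 5.13. The part of copy number or read placement in these stretches was not tested.

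**Figure D2:**
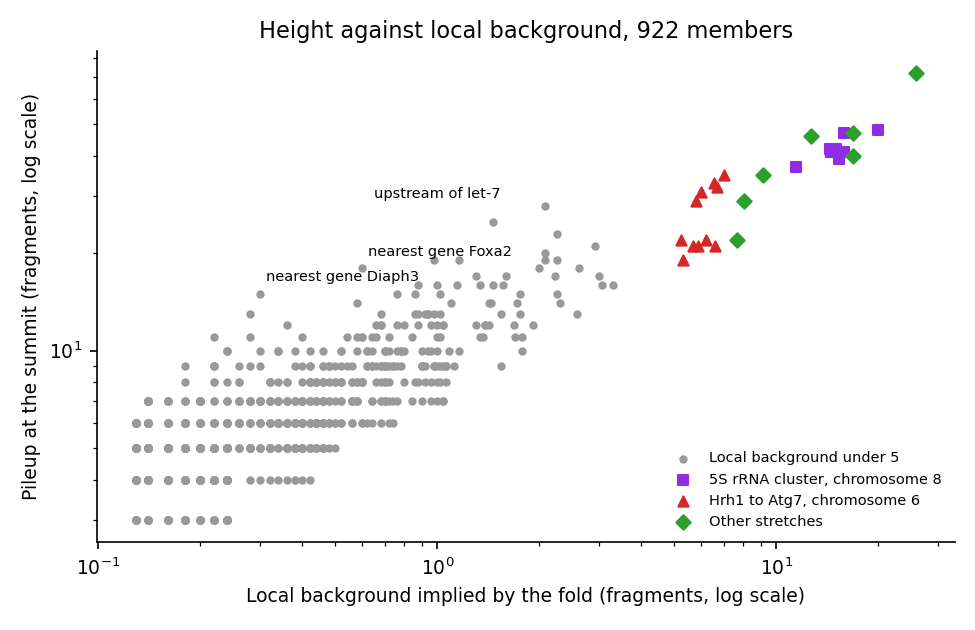
Pileup at the summit against the local background implied by the fold, both in fragments on log axes, with 1 point per member. The 26 members with a background of 5 or more are coloured by stretch and hold the highest pileups, while the members near Diaph3, Foxa2 and let-7 have pileups of 15, 18 and 28 on backgrounds of 0.30, 0.60 and 2.08.

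Most members stood alone. Another member lay within 50 kb of the summit for 197 members (21.4%, 18.8 to 24.2). Another peak of the same class did so for 34.9% of the denser class within 30 kb and for 11.9% of the sparser IgG peaks placed by the same rule. The part of density in these shares was not tested. Chained at 50 kb, the members made 725 single sites, 60 groups of 2, 14 groups of 3, 2 groups of 4 and 1 group each of 6, 8 and 13.

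The group of 13 filled 97.7 kb between Hrh1, a histamine receptor gene, and Atg7, which encodes an enzyme needed to build autophagosomes. Pileups ran from 16 to 35 and folds from 2.89 to 4.57, on a background of 3.06 to 7.02. The ALKBH5 list held 20 peaks in this gap, of which 2 were shared with IgG, and the IgG list held 3, with pileups of 11 to 50 on backgrounds of 1.31 to 2.3, where the median background over the whole IgG list was 0.168. Background at the peaks called in this gap was thus raised in both libraries. The nearest IgG peak was 84190 bp from the first member, on the Hrh1 side, and 1376 bp from the last. IgG coverage over the rest of the stretch was not read.

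The group of 8 lay in the 5S ribosomal RNA cluster between Gas8 and Rhou on chromosome 8, which holds 48 annotated 5S genes. Of its members 7 lay between the copies and 1 just beyond the last copy, next to the pseudogene Gm23647, with 3 to 281 bp to the nearest annotated gene. Pileups were 37 to 48, folds 2.35 to 3.06 and backgrounds 11.4 to 19.9. The ALKBH5 list held 19 peaks in the cluster, 3 shared with IgG, and the IgG list held 4, with pileups of 15 to 36 on backgrounds of 2.6 to 4.96.

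The other 3 of the largest groups stood on lower backgrounds than these stretches, with medians of 0.65, 0.57 and 0.9 fragments. The group of 6 spanned 81.6 kb of chromosome 15 between Basp1, a membrane-bound growth cone protein gene, and Myo10, a myosin of filopodia. Along the chromosome its pileups were 5, 10, 14, 5, 12 and 8 and its folds 5.17, 6.47, 7.14, 4.29, 5.46 and 5.62, with no IgG peak within 50 kb of it. A group of 4 lay between Pkdcc, a secreted kinase gene, and Eml4, a microtubule-binding protein gene, on chromosome 17, with pileups of 7, 9, 4 and 10 and folds of 4.03 to 5.8, and 1 IgG peak with a pileup of 9 lay within 50 kb. The other group of 4 lay on chromosome 2 between Cebpb, a leucine zipper transcription factor of the liver's acute phase response, and Ptpn1, a phosphatase that acts on the insulin receptor. Its pileups were 9, 8, 6 and 16 and its folds 5.21, 4.79, 4.17 and 6.64, the fourth member being the tallest and nearer to Ptpn1, and 2 IgG peaks lay within 50 kb.

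The nearest protein-coding genes were many. The 922 members had 734 different nearest genes, of which 598 had 1 member and 30 had 3 or more. Nearness does not show which gene, if any, a distal region acts on. Where the strand of the nearest gene was known, the member lay on the upstream side for 370 of 679 (54.5%, 50.7 to 58.3), for 78.6% of the peaks within 30 kb and for 195 of 361 IgG peaks of the same distance (54.0%). Far from protein-coding genes slightly more members thus lay upstream than downstream. Their upstream share was close to that of IgG (48.7 to 59.2) and below that of the nearer peaks.

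Among transcription factors of the hepatocyte, 13 members were nearest to 5 of the 31 genes listed, which is 1.41% of the members (0.753 to 2.4) where the DNA nearest to those 31 genes made up 0.321% of the far space. That is 3.98 members per Mb (2.12 to 6.81), against 0.904 per Mb over all of it, and 1 of the 471 IgG peaks lay there. The 13 lay at 35.7 to 400 kb. Over all members the density was 2.03 per Mb at 30 to 50 kb, 1.45 at 50 to 100 kb, 0.891 at 100 to 200 kb and 0.492 at 200 to 500 kb. Distances in this territory were not matched to those of the far space, and their part was not tested. Of the 2783 ALKBH5-only intergenic peaks within 30 kb, 6 were nearest to genes of this list. The intervals count each member separately, although several lay at the same gene. The median fold of the 13 was 5.26, against 5.08 over all members. Foxa2 had 4 of them, at 61.2, 75.5 and 138 kb on its upstream side and 299 kb downstream, with folds of 4.17, 11.9, 4.5 and 5.62 and pileups of 4, 18, 8 and 8. One of the Foxa2 members was thus far above the others, and no IgG peak lay in that territory. Cebpb had 3, all downstream, at 69.7, 75.1 and 111 kb. Tbx3, a T-box factor of liver progenitors, had 3, with folds of 5.32, 5.26 and 6.14 at pileups of 5, 5 and 6. Onecut1, a factor of hepatocyte and bile duct development, had 2 upstream at 223 and 282 kb, with folds of 4.29 and 5.32 at a pileup of 5 each, and Nfia had 1, with a fold of 6.2.

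Among AP-1, Myc and immediate early genes, which growth signals switch on within minutes, 11 members were nearest to 6 of 32 genes (1.19% of the members, against 0.303% of the far space, or 3.57 per Mb, 1.78 to 6.39). There were 4 IgG peaks in the same territory. Distances were not matched here either, and 22 of the 2783 ALKBH5-only intergenic peaks within 30 kb were nearest to genes of this list. Their median fold was 4.76. Myc, the growth-promoting transcription factor often amplified in tumours, had 5 of the 11, with 1 at 432 kb on the side of lower coordinates and 4 at 297, 338, 475 and 579 kb on the other side, beyond the lncRNA gene Pvt1. In that order the folds were 4.31, 6.79, 9.04, 3.39 and 4.79 and the pileups 4, 10, 16, 3 and 6. The member at 338 kb was the highest of the 5, and no IgG peak was nearest to Myc. Myc lies on chromosome 15, which had the highest density of members, 1.85 per Mb. Klf4, a zinc finger factor, had 2 members with folds of 5.93 and 4.67 and pileups of 6 each, and an IgG peak lay 0.899 kb from the first. Atf3, Ccn1, Fosl2 and Klf6 had 1 each, with folds of 4.35 to 4.88.

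**Figure D3:**
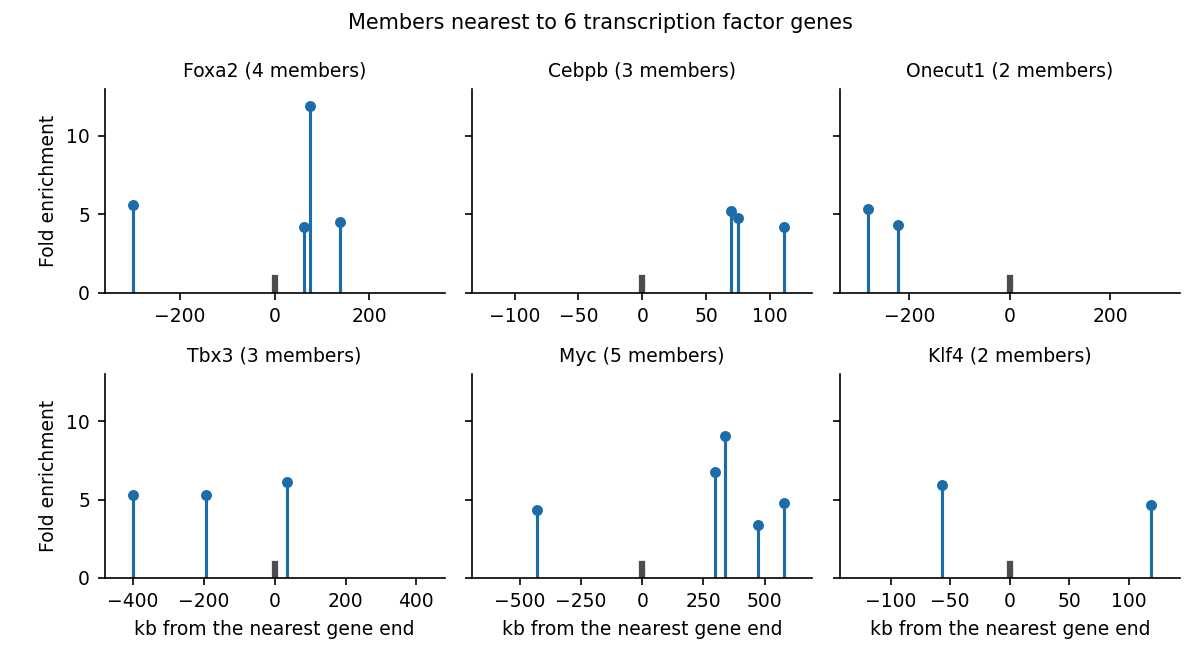
Fold enrichment of each member against its distance in kb from the nearest end of 6 transcription factor genes with 2 or more members nearest to them, the gene being the grey tick at 0 and positive distances lying toward higher coordinates. Most folds are between 3.39 and 6.79, and the members at 75.5 kb from Foxa2 (11.9) and at 338 kb from Myc (9.04) stand above.

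Fewer members per Mb lay around neuronal genes of gene deserts than over the whole far space. Neuronal adhesion and synapse genes, such as cadherins, protocadherins and teneurins, were nearest to 30 members at 23 of 69 genes, 3.25% of the members (2.21 to 4.61) where their surroundings made up 7.73% of the far space. That is 0.382 per Mb (0.257 to 0.545), against 0.904 per Mb over all, and IgG had 19 peaks there (4.03% of its 471). The 30 members lay at 34.3 to 1831 kb. Over all members the density fell from 2.03 per Mb at 30 to 50 kb to 0.492 at 200 to 500 kb and 0.35 beyond 500 kb. Distances were not matched between this territory and the far space, so their part in the lower density was not tested. The median fold was 5.04. Cdh6 had 3 of the 30, with folds of 7.39, 4.65 and 4.71 at pileups of 12, 7 and 7. Cdh8, Cdh10, Cdh12, Cntnap5a and Cntnap5b had 2 each, with pileups of 3 to 6.

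Developmental transcription factors, whose genes are known for wide surroundings full of enhancers, were nearest to 16 members at 12 of 53 genes, 1.74% of the members against 2.17% of the far space (0.726 per Mb, 0.415 to 1.18), with 9 IgG peaks. Tfap2c had 2 members less than 1 kb apart, with folds of 6.5 and 6 at pileups of 12 and 11. Tshz1 had 2 with folds of 5.93 and 5.56, and Lmo4 and Maf had 2 each with folds of 3.54 to 5.22.

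The remaining 5 lists had 5 members or fewer each, in small territories. As in the other lists, distances were not matched to those of the far space. Hepatoma and fetal liver genes had 5 members at 4 of 22 genes in 0.155% of the far space (3.16 per Mb, 1.03 to 7.38) and 5 IgG peaks, with 2 members at Hmga2, a let-7 target, that had folds of 5.26 and 4.39. Glucose and lipid metabolism had 4 members at Foxo1, Insig2, Lpin1 and Sik1 of 32 genes, in 0.176% of the space (2.24 per Mb, 0.61 to 5.73), with folds of 4.07 to 6.67. Growth factor receptors and their regulators had 2 members, at Errfi1 and Spred2 of 27 genes, in 0.562% of the space (0.35 per Mb, 0.0423 to 1.26). Genes that write, erase or read N6-methyladenosine had 1 member in 0.102% of the space, 48.9 kb from Ythdf1, a cytoplasmic reader, with a fold of 6.78. Plasma proteins and liver enzymes, 40 genes, had 1 in 0.184% of the space, at 866 kb from Apob. With a −log10 q of 5 or more, 3 of the 13 members by hepatocyte factors, 3 of the 11 by AP-1, Myc and immediate early genes, 6 of the 30 by neuronal genes and 6 of the 16 by developmental factors were left.

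Outside the lists, and chosen after the counts were seen, Nrip1 had 6 members at 35.6 to 269 kb with folds of 4.24 to 5.74 and pileups of 4 to 7, 5 of them on its upstream side. Hrh1 had 8 and Atg7 had 5, all from the high stretch described above. Basp1 had 6, and Tcte2 had 5 with folds of 4.31 to 5.8.

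The rule keeps members away from protein-coding genes, so their nearest genes are mostly non-coding by construction. The nearest annotated gene of any type was a lncRNA for 480 members (52.1%, 48.8 to 55.3), a pseudogene for 260 (28.2%), a protein-coding gene for 101 (11%), a small nucleolar RNA for 30, a small nuclear RNA for 25 and a microRNA for 9. For the 471 IgG peaks of the same distance rule it was a lncRNA for 44.6% (40 to 49.2), a pseudogene for 33.1% and a protein-coding gene for 11%. Strand was known for 9533 of 12727 lncRNA genes, none on chromosome 18, and starts and ends of the other lncRNA genes were not counted. The shares that follow are over the 880 members on the other chromosomes. A summit lay within 1 kb before a lncRNA start for 34 of them (3.86%, 2.69 to 5.36) and within 1 kb after a lncRNA 3′ end for 8 (0.909%, 0.393 to 1.78). Of 445 IgG peaks of the same distance, 5 lay by a start (1.12%, 0.366 to 2.6) and 4 by a 3′ end (0.899%). Of the ALKBH5-only peaks within 30 kb of a protein-coding gene, 4.56% lay by a lncRNA start (3.8 to 5.41) and 1.15% by a 3′ end, so the members' share at starts was near that of the nearer peaks. Space within 1 kb of such a start made up 0.302% of the far space. Within 5 kb the members were even, 60 by a start and 59 by a 3′ end. Members could lie only outside the gene at either end, since the rule keeps summits out of genes, and this view was chosen after values were seen.

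**Figure D4:**
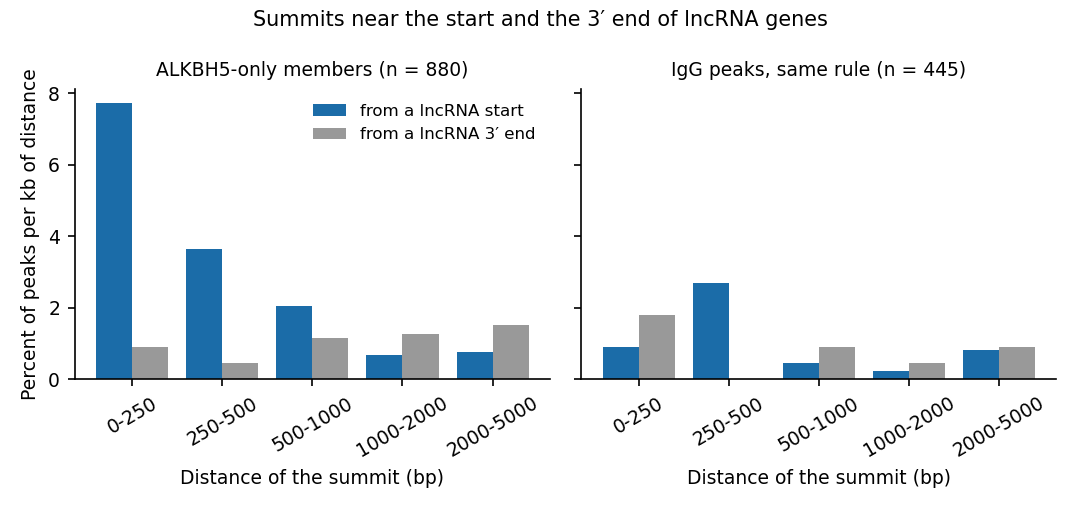
Percent of peaks per kb of distance whose summit lay at the stated distance outside a lncRNA start or a lncRNA 3′ end, for members (880 peaks, left) and IgG peaks of the same distance rule (445, right). In the first 250 bp the members count 17 at starts and 2 at 3′ ends, and IgG counts 1 and 2.

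Members overlapped 24 start windows of 23 lncRNA genes, out of 5324 lncRNA windows that lay 30 kb or more from protein-coding ends (0.451%, 0.289 to 0.67). All IgG peaks, not limited by the member rule, overlapped 6 of the 5324 (0.113%, 0.0414 to 0.245). All ALKBH5 peaks, counted in the same way, overlapped 64 (1.2%, 0.927 to 1.53). The strongest of the members was at A230028O05Rik, between Lpp and Tprg on chromosome 16. It had a fold of 8.5 at a pileup of 16 and its summit 346 bases before the start. Gm34507, between Nox3 and Arid1b, followed with a fold of 7.22 at a pileup of 13, and its whole window lay inside the peak. 4930578M01Rik, between the tubulin genes Tuba1a and Tuba1c, had 7.07 at a pileup of 13. Gm31342, between Ndrg1 and St3gal1, had 6.96 at a pileup of 10 with its summit 65 bases before the start. D630024D03Rik, between Bod1 and Cpeb4, had 6.79 at a pileup of 10. 4930471E19Rik, 145 kb from a protein-coding gene between Hmga2 and Msrb3, had 6.76 at a pileup of 9. The nearest IgG peak was 21056 bp away or more for these 6. The roles of these lncRNAs are not annotated in the sources used here.

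The windows that members overlapped were richer in G and C than other far lncRNA windows. Median GC content was 53.2% over the 24 and 46.3% over the 5324. The number of CpG pairs per window had a median of 7.5 over the 24 and 3 over the 5324. There were 10 or more in 9 of the 24 (37.5%, 18.8 to 59.4) and in 7.31% of the 5324, against 56.8% of 21263 protein-coding windows. Gm34507 had 49, Gm31342 had 10, 4930471E19Rik had 9 and D630024D03Rik had 8. Whether GC content moves with coverage in these libraries was not tested.

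Motif matches, on both strands and with N for any base, were few in 24 windows. The AP-1 motif TGANTCA was in 2 (8.33%, 1.03 to 27) and in 11% of the far windows. The forkhead motif TGTTTNC was in 5 (20.8%, 7.13 to 42.2) and in 27.4% of them, and the C/EBP motif TTGCNNAA in 3 (12.5%) and 13.2%. Of these 3 windows, 2 belong to Gm19705, overlap each other and hold the same match. The HNF4 motif CAAAGTCCA was in 0 of the 24 and in 0.563% of the far windows. Of the windows printed above, Gm34507 held TGTTTNC 153 to 147 bases before its start and the NRF1 motif 24 to 15 bases before it. Gm31342 held the ETS motif CCGGAAG 49 to 43 bases and the CTCF motif AGGNGGCNC 238 to 230 bases before its start, the CTCF match outside the peak. 4930471E19Rik held the AP-1, forkhead and C/EBP motifs beginning 215, 110 and 79 bases before its start, the C/EBP match outside the peak. D630024D03Rik held none of those searched. The ETS motif was in 4.17% of the 24 and 2.4% of the far windows, NRF1 in 4.17% and 0.62%, CTCF in 4.17% and 3.94% and the GATA motif AGATAA in 4.17% and 17.1%. Each of these intervals on 24 windows is wide and counts overlapping windows of the same gene separately, and no difference in motif share was tested.

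MicroRNA hairpins, the folded precursors from which mature microRNAs are cut, lay within 20 kb of the summit for 10 of 876 members (1.14%, 0.549 to 2.09), 0 of 444 IgG peaks of the same distance (up to 0.827%) and 126 of 2697 ALKBH5-only peaks within 30 kb (4.67%). The member before the let-7 cluster, whose microRNAs are known to repress Lin28, Hmga2 and Myc messages, was 1019 bp wide with a pileup of 28, a fold of 9.42 and a −log10 q of 17.7, and the nearest IgG peak was 312 kb away. The member before Mir30a was 1076 bp wide with a pileup of 25, a fold of 10.6 and a −log10 q of 18, the highest of all members. These 2 were the highest of the 10 by pileup and by fold.

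Values of 7 of the other 8 follow. The members before Mir29b-1, whose family is known to repress collagen messages, were 12.8 and 19.7 kb away with folds of 4 and 3.91 at pileups of 7 and 13, and IgG peaks lay 24.6 and 17.6 kb from them. The member before Mir146, known from the restraint of inflammatory signalling, was 11 kb away with a fold of 6.35 at a pileup of 7. Members near Mir3089, Mir3966, Gm51276 and Gm51270 had folds of 5.61, 4.39, 5.06 and 5.37 at pileups of 21, 4, 7 and 12. A member in the high stretch of chromosome 9, 718 bp from Mir101c, is not in this count. The hairpins counted are those with a RefSeq sequence entry, this view was also chosen after values were seen, and a hairpin's own transcription start was not used here.

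Chromosomes differed in density, and IgG differed with them in part. Chromosome 15 had 1.85 members and 0.925 IgG peaks per Mb of far space, the highest of both. Chromosome 17 had 1.66 members and 0.512 IgG peaks, chromosome 6 had 1.53 and 0.524, chromosome 2 had 1.41 and 0.627, and chromosome 10 had 1.35 and 0.616. The lowest were X with 0.268 members (23 members, 2.49% of all) and 0.198 IgG peaks, and Y with 0.0549 and 0.0137. Among the autosomes chromosome 14 was lowest in both, with 0.533 members and 0.226 IgG peaks. Chromosome copy numbers of this line were not analysed here, and their part was not tested.

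**Figure D5:**
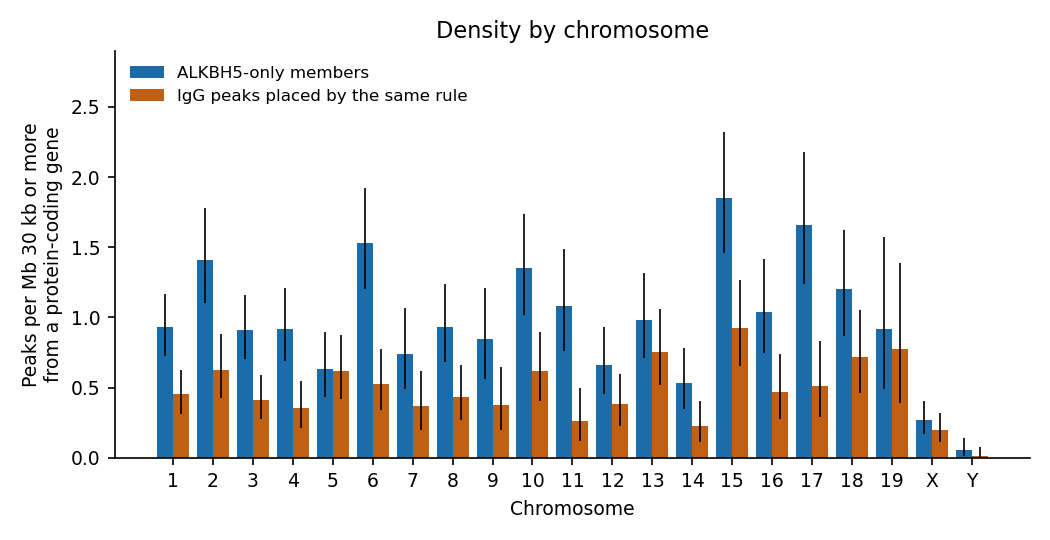
Peaks per Mb of space 30 kb or more from a protein-coding gene, by chromosome, for members (left bar of each pair) and IgG peaks of the same rule (right bar), with exact 95% Poisson intervals. Members reach 1.85 per Mb on chromosome 15, where IgG is also highest at 0.925, and 0.268 on X.

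The 5 members farthest from protein-coding genes stood alone, as most members did. Their pileups were at or below the members' median of 6, and their folds lay around the median of 5.08. They lay 1831 kb from Tenm3 on chromosome 8 (fold 5.08, pileup 5), 1766 kb from G6pd2 on chromosome 5 (6.2 and 6), 1690 kb from Pcdh17 on chromosome 14 (4.43 and 4), 1685 kb from Acvr2a on chromosome 2 (5 and 5) and 1637 kb from Tenm2 on chromosome 11 (5.26 and 5). The genes on their other sides were Aga, Pcdh7, Olfm4, Zeb2 and Mat2b, 1805 kb away or more. The teneurins Tenm2 and Tenm3 guide the matching of neurons, Zeb2 is a zinc finger repressor and Acvr2a an activin receptor. Each of the 5 rested on 4 to 6 fragments.

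At the 30 kb limit, the 3 members just inside were at 30036 bp from Vmn1r39 (fold 3.54, pileup 3), 30041 bp from Crabp1, a retinoic acid-binding protein gene (4.62 and 5), and 30130 bp from Rgs3, a regulator of G protein signalling (3.33 and 3). The 3 peaks just outside were at 29969 bp from Tmem72 (5.74 and 6), 29938 bp from Tmem158 (4.1 and 4) and 29922 bp from Ugcg, the enzyme that makes glucosylceramide (5.08 and 5). Pileups and folds overlapped across the limit.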

How the data were processed

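The authors deposited 1 peak table per library in the MACS2 layout. Pileup is the authors' coverage signal at the summit in fragments, and fold enrichment is the authors' ratio of that pileup plus 1 to the local background plus 1. The columns of −log10 p-value and −log10 q-value had lost their headers in the deposited tables and were identified by their place. Per the submitters' processing notes, the tools were MACS2, R 3.4.1, Bowtie2 2.2.9 and SAMtools 1.3.1, with GRCm38 as the build. Depth is unknown, since no total of reads was given in the sources used here, and nor were the antibody, the settings or the use of IgG as a control.

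Peaks were placed against 49943 RefSeq genes of GRCm38.p6, 21887 of them protein-coding, with Python 3.11.15, numpy 2.4.6, pandas 2.3.3, scipy 1.17.1 and matplotlib 3.10.9. Overlap meant 1 bp in common. Local background is pileup plus 1, divided by fold, minus 1. Densities used a 200 bp grid between the first and last annotated gene of each chromosome. Shares have exact binomial and densities exact Poisson 95% intervals, which count each peak separately. Strand came from the RefSeq promoter windows, which cover 9533 of 12727 lncRNA genes and none on chromosome 18. Of the steps, the overlap and gap between peaks and the placement against genes were tested on simulated peaks.

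Members named are the 10 highest by fold, the 10 highest by pileup, the 5 farthest from protein-coding genes, the 3 on each side of the limit, the 5 largest groups, and listed genes with 2 or more members. Other named genes were chosen after their values were seen, and 1 member's values are not reported here. The members and the 9 gene lists were chosen with earlier results of these data known. With 1 library per group no test was run.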

Additional observations from a re-analysis of the deposited data

How the results depend on the processing

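Of 68 recalculated values, 36 stayed within the counting interval or count range of the value reported and 32 moved. The number of members was 922 and became 371 when the 30 kb was counted from any annotated gene, 268 with −log10 q limited to 5 and above, and 516 with fold limited to 5 and above. The median fold of 5.08 became 6.4 and 5.78 under the last 2 limits. The share with another member within 50 kb, 21.4%, became 12.4%, 11.9% and 13.4% under those 3 rules, and 12.8% and 26.1% with windows of 20 and 100 kb. The share with an IgG peak within 10 kb, 4.88%, became 8.21% at a −log10 q of 5 or more, 3.09% without members that had an IgG peak within 1 kb, and 3.36% and 16.2% with windows of 5 and 50 kb. These alternatives by construction keep fewer peaks or use other windows. Counted by either flanking gene in place of the nearest, and at a −log10 q of at least 5, the members at hepatocyte factors, 13, became 21 and 3, at neuronal genes, 30, became 60 and 6, at developmental factors, 16, became 32 and 6, at AP-1, Myc and immediate early genes, 11, became 16 and 3, at hepatoma genes, 5, became 9 and 0, at glucose and lipid genes, 4, became 7 and 1, and at growth factor genes, 2, became 6 and 0. IgG and the peaks within 30 kb were not recomputed under these alternatives. Leaving out the members on a local background of 5 or more, an alternative chosen after seeing the data, gave 19% for another member within 50 kb and 3.68% for an IgG peak within 10 kb.

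No paired analysis was possible because there was 1 library per group, and for the same reason no replicate was left out. GC content and motifs at the summits were planned and not run, since no genome sequence was used here. Most members rest on fewer than 10 fragments of a single library of unknown depth, which limits what the lack of an IgG peak shows.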
